A study of Mus musculus with 8 samples.

Results

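The genes described here are 10 components of Notch signalling measured in whole mouse cerebellum: the receptors Notch1, Notch2 and Notch3, the ligands Jag1 and Dner, and the nuclear repressors Hes1, Hes5, Hey1, Hey2 and Heyl. They were taken by symbol from a table of read counts with 24060 gene rows, and all 10 symbols were found. The bigenic group was 4 mice carrying both the CalExflox allele and Aldh1l1-Cre/ERT2, and the control group was 4 mice carrying CalExflox alone. CalEx is a plasma membrane calcium pump that exports calcium from the cell, and Aldh1l1-Cre/ERT2 is a tamoxifen-activated recombinase expressed in astrocytes, including the Bergmann glia of the cerebellar cortex. Every mouse, with or without Cre, received 1 dose of tamoxifen at 75 mg/kg, and tissue was taken 5 days later. Each library came from a mouse of its own. The labels used here give no age or sex, and since Cre was present in the bigenic mice alone, the pump and Cre cannot be told apart. The comparison asks how transcripts of cerebellar tissue differ after the pump was switched on in astrocytes.

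Notch receptors are single-pass membrane proteins that are cut after binding a ligand on a neighbouring cell. The freed intracellular part enters the nucleus, joins the DNA-binding protein RBPJ and a Mastermind co-activator, and switches on repressors of the Hes and Hey families. Dner is an EGF-repeat membrane protein of neurons, prominent on Purkinje cell dendrites, and in the mouse it has been described as a Notch ligand that acts on Bergmann glia. In vessel walls, Notch1 and Notch4 act in endothelium and Notch3 in mural cells, with Hey1, Hey2 and Heyl among their targets.

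The letters TGGGAA, or TTCCCA read on the opposite strand, are the core of the site that RBPJ recognises. Promoter windows from RefSeq (GRCm38.p6, which is mm10) running from 250 bases before to 50 bases after the start were found for 7 of the 10 genes, those of Notch1, Notch2, Notch3, Jag1, Dner, Hes5 and Hey2; Hes1, Hey1 and Heyl were not in that table. The core was found in the windows of Hes5 and Hey2, with 2 matches in each, and these windows are shown because they held it. Both genes are classical nuclear targets whose transcript level is reported below. For Notch3 the part of the window after the start was not found in a GENCODE M21 transcript of the gene. Whether its window lies at the transcript start is therefore uncertain. Of 32851 windows of 300 bases, 25.6% held at least 1 core on either strand and 3.79% held at least 2. The longer form GTGGGAA occurred at least 2 times in 84 windows, or 0.256%, and Hes5 and Hey2 were among them. Each stretch below runs 5′ to 3′ on the gene's strand from 240 bases before to 10 bases after the start, with the core in capitals, at chr4:154960683-154960932 on the plus strand for Hes5 and at chr10:30842774-30843023 on the minus strand for Hey2.
Hes5: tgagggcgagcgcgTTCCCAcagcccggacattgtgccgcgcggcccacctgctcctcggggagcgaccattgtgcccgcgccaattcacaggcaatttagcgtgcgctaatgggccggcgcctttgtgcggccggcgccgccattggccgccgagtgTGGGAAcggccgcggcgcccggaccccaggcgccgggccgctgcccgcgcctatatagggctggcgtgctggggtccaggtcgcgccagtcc
Hey2: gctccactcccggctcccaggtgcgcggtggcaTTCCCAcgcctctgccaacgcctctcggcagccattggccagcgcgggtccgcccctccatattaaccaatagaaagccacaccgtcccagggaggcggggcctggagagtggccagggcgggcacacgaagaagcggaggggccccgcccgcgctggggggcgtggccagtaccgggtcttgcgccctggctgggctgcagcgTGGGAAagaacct
Counted from the RefSeq start, the cores begin 226 and 82 bases before it in Hes5 and 207 and 3 bases before it in Hey2. The second core of Hey2 runs across that start. GENCODE M21 places the 5′ end of Hey2 further upstream, at 30842801, so by that annotation the second core lies inside the gene. A match of letters is a description of the sequence and does not show that RBPJ binds there.

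Counted reads per library ranged from 35208460 to 38150087 in the bigenic group and from 35619445 to 38293012 in the control group. Of the 15186 genes that passed the filter on low counts, 6734 (44.3%) differed between the groups at an adjusted p under 0.05 (edgeR quasi-likelihood test, Benjamini-Hochberg adjustment over all genes tested), 3249 (21.4%) higher and 3485 (22.9%) lower in bigenic tissue. With library size alone as the scaling, the split was 2423 higher and 4373 lower. Markers of Purkinje cells, granule cells and Bergmann glia were abundant in every library. Transcripts of the choroid plexus, a tissue of the adjoining ventricle, stood out in 3 control libraries: Ttr was between 2.25 and 4.62 CPM (read counts scaled to library size with TMM factors) in the bigenic libraries, against 300.2, 2360, 2961 and 2.76 CPM in control libraries 1 to 4. Of 9 choroid plexus markers 8 were lower in bigenic tissue, with a summed level of 48.4 to 56.0 CPM in bigenic libraries and 44.8 to 3180 CPM in control libraries, and Kcne2 was at 0 in control library 4. Without control libraries 2 and 3, 3394 genes (21.9% of those tested) passed the threshold. In bulk tissue, fewer cells of a type and less RNA per cell cannot be told apart.

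Among the 10 genes, Notch1 was higher and Jag1 lower in bigenic cerebellum, and the other 8 did not pass the threshold. That is 1 gene in each direction, against 21.4% higher and 22.9% lower among all genes tested. All 10 passed the filter on low counts. Their median log2 fold change was 0.10, beside -0.004 over all genes tested, and the fold changes of called genes were modest, a factor of 1.46 for Notch1 and 0.703 for Jag1. With 3 of 10 at an unadjusted p under 0.05, against 52.4% of all genes, the share of the 10 was no larger than the background. The number called higher was 2 with DESeq2 (23.5% of all genes), 0 on log2(FPKM + 1) (15.6%), 0 on log2(FPKM + 0.1) (15.7%), 0 without control libraries 2 and 3 (10.4%) and 0 with Ttr as a covariate (8.36%), a setting added after the data were seen.

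The levels of the 10 genes, which can be compared between genes only per length, spanned a wide range on the deposited FPKM scale (reads scaled to transcript length and library total). Dner was by far the most abundant, at 165 ± 13.5 FPKM in bigenic and 146 ± 20.0 FPKM in control tissue (SD, n = 4 each). Hey1 came next, at 23.0 ± 2.61 FPKM in bigenic and 24.2 ± 1.44 FPKM in control tissue. These 2 levels did not overlap with each other or with any other member in any of the 8 libraries. Below them came Hes1 (mean over the 8 libraries 5.26 FPKM), Notch2 (3.55), Hey2 (2.97), Notch1 (2.30), Jag1 (1.25), Notch3 (0.767), Hes5 (0.696) and Heyl (0.164). Each neighbouring pair from Hes1 down to Heyl had overlapping ranges over the 8 libraries, so that part of the order is not firm. Notch2 exceeded Hey2 in 5 of 8 libraries and Notch3 exceeded Hes5 in 5 of 8, whereas Notch1 exceeded Jag1 in 8 of 8 libraries.

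**Figure D1:**
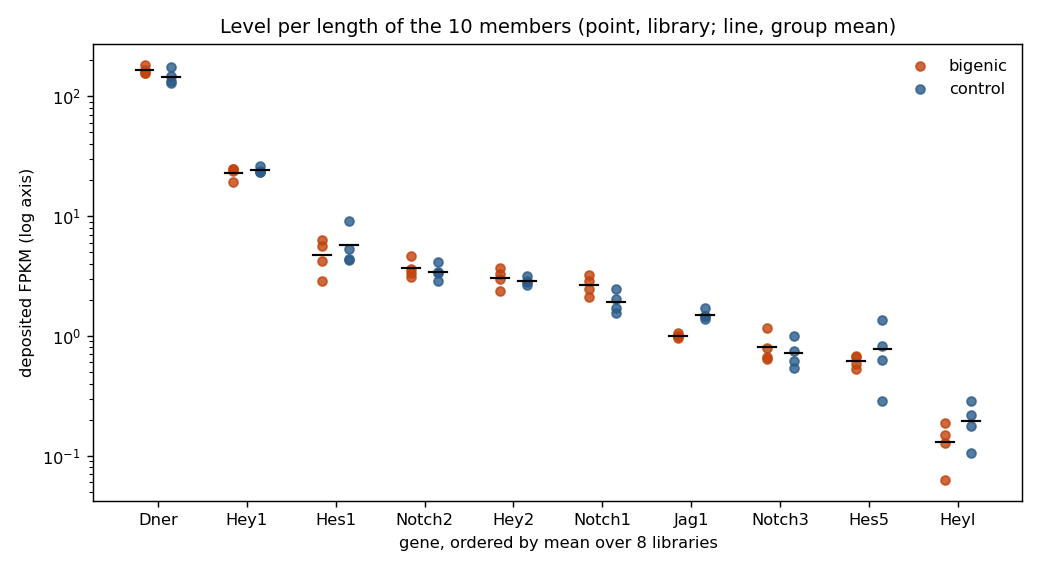
Deposited FPKM of the 10 genes on a log axis, ordered by their mean over 8 libraries. Each point is a library, bigenic (orange) left of control (blue), and the black line is the group mean; Dner and Hey1 lie above all others, at means of 155 and 23.6 FPKM.

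Notch1, a receptor expressed in glia and endothelium (chromosome 2, 26457903 to 26516663, minus strand, mm10, GENCODE M21), had CPM values of 27.87, 31.68, 24.39 and 20.25 in bigenic libraries 1 to 4, against 22.51, 18.72, 14.44 and 15.49 CPM in control libraries 1 to 4. Bigenic library 4 lay below control library 1, so the groups overlapped, and the other 3 bigenic values were above all controls. The log2 fold change was 0.55 ± 0.16 (SE; edgeR adjusted p = 0.0169), with a 95% interval of 0.197 to 0.904. The call was lost without control library 3 (0.46, adjusted p = 0.052), without control libraries 2 and 3 (0.45, adjusted p = 0.13), with Ttr as a covariate (0.63, adjusted p = 0.12) and on log2(FPKM + 1) (0.32, adjusted p = 0.055 by limma). Exons of Notch1 overlap Gm13568 and 0610009E02Rik, transcribed the other way, and without strand information their reads cannot be told apart.

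Notch2, also expressed in glia (chromosome 3, 98013527 to 98150361, plus strand), had CPM values of 38.71, 49.83, 37.07 and 33.07 in bigenic libraries 1 to 4, against 34.17, 42.20, 35.31 and 28.92 CPM in control libraries 1 to 4. The ranges overlapped, with bigenic library 2 the highest of the 8 and control library 4 the lowest. Its log2 fold change was 0.17 ± 0.14 (SE; edgeR adjusted p = 0.324), with a 95% interval of -0.127 to 0.477. Gm42820 shares exon sequence with Notch2 on the same strand, and Gm17276 overlaps Notch3 in the opposite direction, so the counts of both receptors carry that uncertainty.

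Notch3, the receptor of pericytes and vascular smooth muscle (chromosome 17, 32120820 to 32166852, minus strand), had CPM values of 6.36, 9.47, 5.54 and 5.15 in bigenic libraries 1 to 4, against 7.71, 5.77, 4.21 and 4.63 CPM in control libraries 1 to 4. Bigenic library 2 and control library 1 were the highest of their groups, and the ranges overlapped. The log2 fold change of 0.25 ± 0.23 (SE; edgeR adjusted p = 0.397) was within the spread between replicates, and without bigenic library 2 it was 0.024. Of 11 markers of mural cells, 1 was higher, Pdgfrb at 28.1 ± 2.04 CPM in the bigenic mice and 20.6 ± 3.32 CPM in the controls (SD, n = 4 each; edgeR adjusted p = 0.00883), and 1 was lower, Vtn at 97.9 ± 7.14 CPM in the bigenic mice and 115 ± 7.39 CPM in the controls (edgeR adjusted p = 0.0285). The pericyte marker Rgs5 averaged 45.0 ± 7.39 CPM in the bigenic mice and 51.5 ± 2.33 CPM in the controls and did not pass (edgeR adjusted p = 0.172). Among all genes tested, 21.4% were higher and 22.9% lower. The summed level of the 11 mural markers was between 215 and 249 CPM in bigenic libraries and between 225 and 258 CPM in control libraries.

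The 3 receptors share 2 features that the choice of genes did not use. They are the longest transcripts of the 10, with lengths of 9489, 10506 and 7943 bases behind the deposited FPKM for Notch1, Notch2 and Notch3, and each had its highest value in bigenic library 2. That library was also the highest for Dner and the lowest for Hes1, Hey1 and Hey2, whose lengths are 1451, 2205 and 2532 bases. Over all genes tested, bigenic library 2 stood apart by length: its median deviation from the mean of the 8 libraries was -0.10 on the log2 scale in the shortest of 10 length bins and 0.19 in the longest bin, which holds the receptors. In the other 7 libraries the longest bin lay between -0.064 and -0.001. The median log2 fold change of the 1519 longest genes was 0.067. Without bigenic library 2, Notch1 was at 0.44 (adjusted p = 0.045), Notch2 at 0.045 (adjusted p = 0.78) and Notch3 at 0.024 (adjusted p = 0.93). The part of the length pattern in the receptor values was not tested further.

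**Figure D2:**
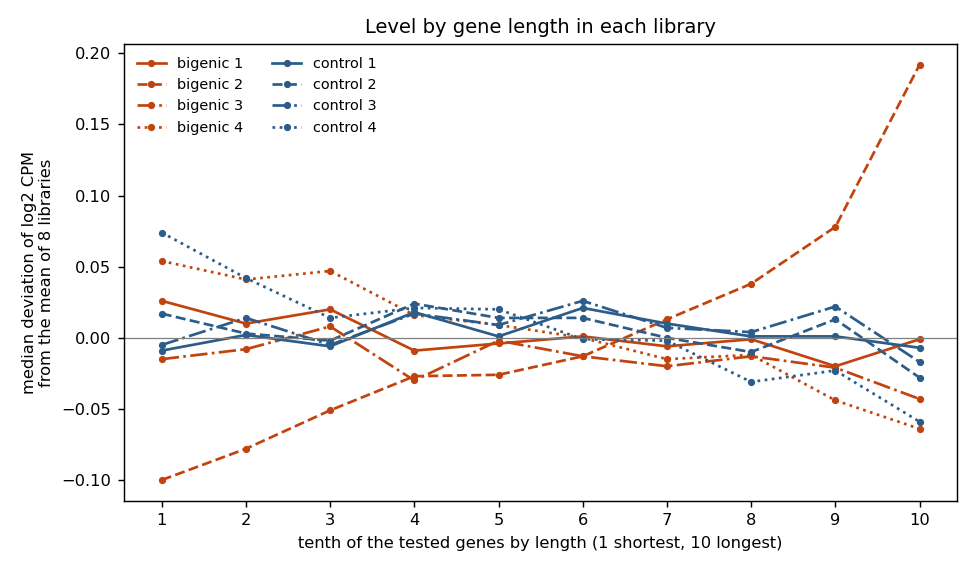
Median deviation of log2 CPM from the mean of the 8 libraries, for the tested genes divided into 10 bins by length from shortest to longest, with 1 line per library (bigenic orange, control blue). Bigenic library 2 runs from -0.10 in the shortest bin to 0.19 in the longest, apart from the other 7.

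Jag1, a membrane ligand of Notch found on vessel walls and glia (chromosome 2, 137081456 to 137116644, minus strand), was lower in bigenic cerebellum. It had CPM values of 5.33, 5.92, 5.75 and 5.56 in bigenic libraries 1 to 4, against 7.41, 7.79, 7.98 and 8.89 CPM in control libraries 1 to 4. The groups did not overlap, as was also the case for 40.7% of all genes tested, and this held for 1 of the 10 genes, Jag1. The log2 fold change was -0.51 ± 0.11 (SE; edgeR adjusted p = 0.00382), a 29.7% lower level, with a 95% interval of -0.753 to -0.262. The call held under all 17 alternative settings, with adjusted p between 0.00022 and 0.040. Its highest value was in control library 4, in which Ttr was 2.76 CPM. Without control libraries 2 and 3 the log2 fold change was -0.53. That setting kept control library 1, in which Ttr was 300.2 CPM. The part of choroid plexus content in the Jag1 difference was not tested. Of 10 endothelial markers, 3 fell and 0 rose, beside 22.9% lower and 21.4% higher among all genes tested. Of the fallers, Kdr was at 9.92 ± 1.02 CPM in the bigenic mice and 19.7 ± 2.11 CPM in the controls. Tie1 was at 6.83 ± 0.706 CPM in the bigenic mice and 11.3 ± 1.44 CPM in the controls (SD, n = 4 each). Pecam1, Cdh5 and 5 other endothelial markers did not pass. Pecam1 was at 35.8 ± 3.81 CPM in the bigenic mice and 33.4 ± 3.76 CPM in the controls (edgeR adjusted p = 0.449). Cdh5 was at 6.9 ± 1.3 CPM in the bigenic mice and 8.33 ± 0.403 CPM in the controls (edgeR adjusted p = 0.14). The summed level of the list was between 209 and 238 CPM in bigenic and between 236 and 260 CPM in control libraries. None of these markers was at 0 in any library, and their part in the Jag1 difference was not tested.

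Dner (chromosome 1, 84369839 to 84696221, minus strand) had CPM values of 610.2, 687.6, 592.7 and 572.6 in bigenic libraries 1 to 4, against 612.2, 519.4, 485.6 and 442.3 CPM in control libraries 1 to 4. Control library 1 lay within the bigenic range, and the other 3 controls were below all bigenic libraries. The log2 fold change was 0.26 ± 0.10 (SE), and the adjusted p of 0.0554 (edgeR) just missed the threshold, with a 95% interval of 0.038 to 0.478 before adjustment over genes. Dner passed without control library 1 (0.35, adjusted p = 0.011) and with DESeq2 (0.27, adjusted p = 0.036). It was at 0.17 with library size alone (adjusted p = 0.17). Of 9 Purkinje cell markers 1 rose and 0 fell, beside 21.4% higher and 22.9% lower among all genes tested. The median log2 fold change of these markers was 0.10. Their summed level was between 13600 and 15200 CPM in bigenic libraries and between 12100 and 14300 CPM in control libraries. Calb1 was at 1900 ± 251 CPM in the bigenic mice and 1690 ± 98.7 CPM in the controls, and Pcp2 at 653 ± 25.5 CPM in the bigenic mice and 588 ± 44.2 CPM in the controls (SD, n = 4 each; edgeR adjusted p = 0.163 and 0.109). The part of Purkinje cell content in the Dner values was not tested.

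**Figure D3:**
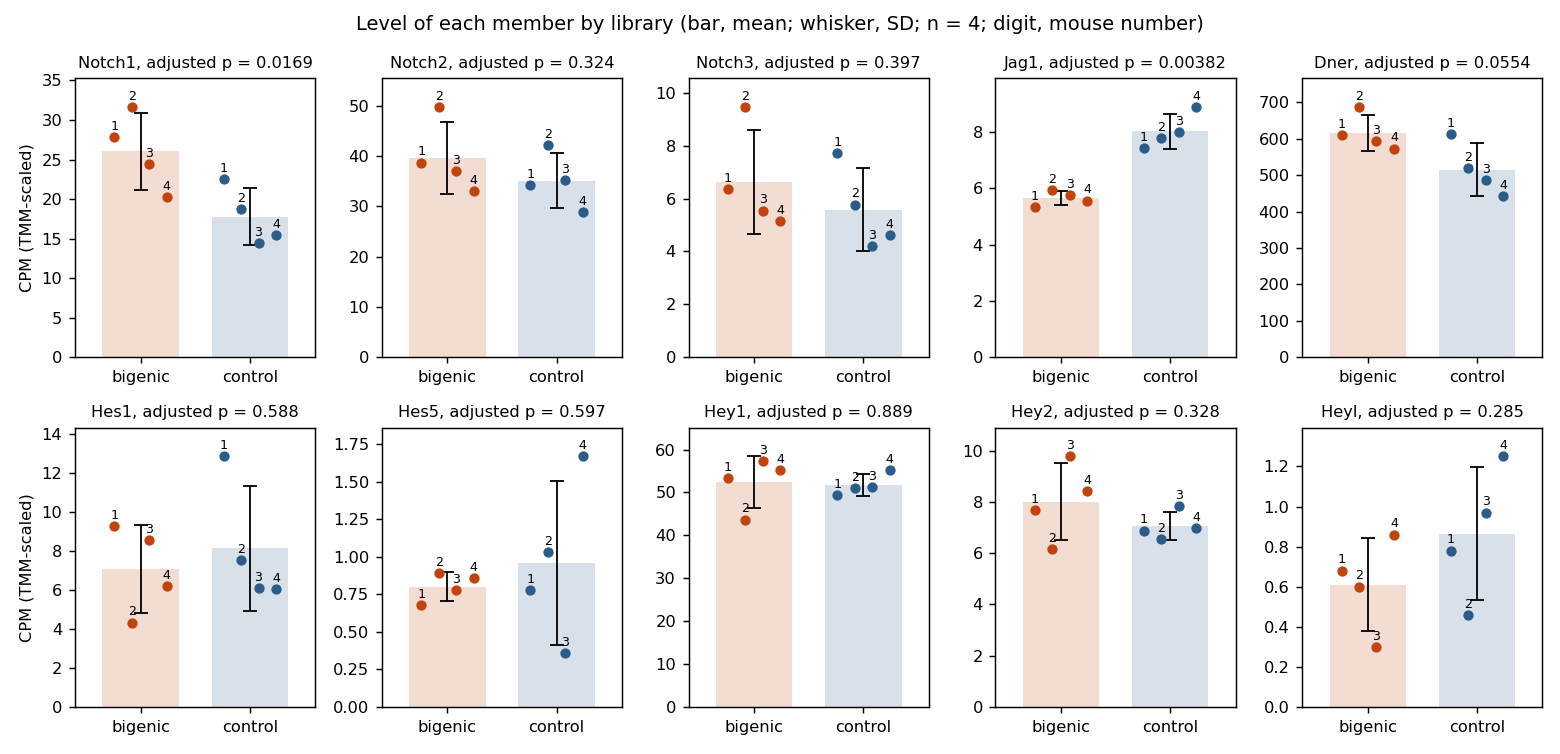
CPM of each of the 10 genes in the 4 bigenic (orange, left) and 4 control (blue, right) libraries, with the mouse number beside each point, the mean as a bar and the SD as a whisker. Jag1 is the gene whose groups do not overlap, and bigenic library 2 is highest in Notch1, Notch2, Notch3 and Dner.

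The Hes and Hey genes, the nuclear repressors that Notch signalling induces, gave 0 calls out of 5 (edgeR), beside 44.3% of all genes, and 0 of the 5 reached an unadjusted p under 0.05, beside 52.4% of all genes. With DESeq2 the count was also 0. Hes1, a repressor that keeps neural progenitors undifferentiated (chromosome 16, 30064384 to 30067796, plus strand), had CPM values of 9.30, 4.33, 8.56 and 6.20 in bigenic libraries 1 to 4, against 12.87, 7.54, 6.10 and 6.05 CPM in control libraries 1 to 4. The values varied by more than 2-fold within each group, with control library 1 the highest. The log2 fold change was -0.20 ± 0.28 (SE; edgeR adjusted p = 0.588), and without control library 1 it was 0.11 (adjusted p = 0.73).

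Hes5, the close relative of Hes1 with 2 RBPJ cores in the window shown above (chromosome 4, 154960923 to 154962371, plus strand), was near the lower limit of these libraries. It had 24, 33, 26 and 31 reads in bigenic libraries 1 to 4, against 29, 40, 13 and 67 reads in control libraries 1 to 4. The controls held both the lowest and the highest value. The log2 fold change was -0.26 ± 0.37 (SE; edgeR adjusted p = 0.597), with a 95% interval of -1.071 to 0.554. With Ttr as a covariate it was -1.03 (adjusted p = 0.095), and without control libraries 2 and 3 it was -0.61 (adjusted p = 0.23). Exons of Hes5 overlap Gm20421 on the opposite strand.

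Hey1, the most abundant of the repressors (chromosome 3, 8663359 to 8667256, minus strand), had CPM values of 53.26, 43.66, 57.30 and 55.21 in bigenic libraries 1 to 4, against 49.39, 51.02, 51.19 and 55.24 CPM in control libraries 1 to 4. The control values lay inside the bigenic range. Its log2 fold change was 0.02 ± 0.09 (SE; edgeR adjusted p = 0.889), with a 95% interval of -0.182 to 0.217, the narrowest of the 10.

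Hey2, a repressor of arterial endothelium with 2 RBPJ cores in its window (chromosome 10, 30832359 to 30842801, minus strand), had CPM values of 7.67, 6.17, 9.78 and 8.43 in bigenic libraries 1 to 4, against 6.88, 6.54, 7.84 and 6.97 CPM in control libraries 1 to 4. Bigenic library 2 was the lowest and bigenic library 3 the highest of the 8. Its log2 fold change was 0.18 ± 0.15 (SE; edgeR adjusted p = 0.328), and without bigenic library 2 it was 0.29 (adjusted p = 0.076).

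Heyl, a repressor of vascular smooth muscle (chromosome 4, 123233556 to 123249875, plus strand), had 24, 22, 10 and 31 reads in bigenic libraries 1 to 4, against 29, 18, 35 and 50 reads in control libraries 1 to 4. The groups overlapped, and the gene was the lowest of the 10 per length. Its log2 fold change of -0.50 ± 0.36 (SE; edgeR adjusted p = 0.285) had a 95% interval of -1.284 to 0.293, about as far from 0 as Jag1 but with an error more than 3 times as large.

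For the rest of the pathway, in a list of 59 ligands, modifying enzymes, proteases, nuclear partners and regulators, 54 were tested, of which 21 rose, 6 fell and 27 did not pass. The median log2 fold change was 0.17, beside -0.004 over all genes, and the share of calls of 21.4% higher and 22.9% lower among all genes is the background for these counts. The list was chosen with earlier results of these data known. Without control libraries 2 and 3, 11 were higher and 5 lower, beside 10.4% and 11.4% of all genes. With Ttr as a covariate the counts were 9 and 4, beside 8.36% and 11% of all genes, and with library size alone 17 and 10, beside 16% and 28.8%. The 5 genes not tested (Dlk1, Rbpjl, Hes2, Hes7 and Helt) had at most 8 reads in any library.

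Among the other receptor and ligands, 1 of 6 rose and 1 fell. Dll4, a ligand of arterial and sprouting endothelium, had CPM values of 4.96, 3.54, 3.80 and 4.14 in bigenic libraries 1 to 4, against 2.85, 1.97, 2.27 and 2.22 CPM in control libraries 1 to 4. The groups did not overlap, and the log2 fold change was 0.82 ± 0.17 (SE; edgeR adjusted p = 0.00271), opposite in sign to Jag1. The call was lost without control libraries 2 and 3 (0.70, adjusted p = 0.051) and with Ttr as a covariate (0.82, adjusted p = 0.062). Dlk2, which lacks the domain that activates Notch, fell by 1.40 on the log2 scale at well under 1 CPM, and its call was lost without control library 4 (-1.10, adjusted p = 0.077) and without bigenic library 3 or 4. Notch4, the endothelial receptor, was at 4.08 ± 0.969 CPM in the bigenic mice and 3.91 ± 0.830 CPM in the controls, Dll1 at 5.00 ± 0.886 CPM in the bigenic mice and 5.05 ± 0.322 CPM in the controls, and Jag2 at 12.6 ± 2.05 CPM in the bigenic mice and 10.1 ± 1.91 CPM in the controls (SD, n = 4 each), and these did not pass (edgeR adjusted p = 0.827, 0.942 and 0.130).

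Of the 10 tested genes for proteases that cut Notch or for subunits of such a protease complex, 3 were higher and 2 lower. These shares were near the 21.4% and 22.9% of all genes. Furin, which cuts the receptor precursor before it reaches the cell surface, rose by 0.62 ± 0.11 (SE; edgeR adjusted p = 0.000972). Adam17, a metalloprotease that can shed the outer part of Notch, had CPM values of 22.96, 25.43, 17.27 and 21.08 in bigenic libraries 1 to 4, against 40.91, 47.23, 43.57 and 43.96 CPM in control libraries 1 to 4. Its log2 fold change was -1.02 ± 0.11 (SE; edgeR adjusted p = 6.5e-05), and exons of Adam17 overlap Iah1 on the opposite strand. Ncstn, the substrate-binding subunit of the complex that frees the intracellular part, rose by 0.59 on the log2 scale (edgeR adjusted p = 0.000383). Exons of Ncstn overlap Copa on the opposite strand. Among the enzymes of glycosylation and ligand uptake 2 of 9 rose and 2 fell, and Pofut1, which adds fucose to the EGF repeats of Notch, was at 29.7 ± 3.24 CPM in the bigenic mice and 40.0 ± 1.13 CPM in the controls (SD, n = 4 each; edgeR adjusted p = 0.0028), a call lost with Ttr as a covariate (-0.37, adjusted p = 0.087).

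The nuclear partners were mostly higher, with 8 of 11 up and 0 down, beside 21.4% and 22.9% of all genes tested. Their median log2 fold change was 0.34. Rbpj, the DNA-binding protein at the centre of the complex, did not pass, at 20.7 ± 1.24 CPM in the bigenic mice and 19.7 ± 0.919 CPM in the controls (SD, n = 4 each; edgeR adjusted p = 0.531). The co-activator Maml1 had CPM values of 12.84, 15.09, 13.64 and 13.60 in bigenic libraries 1 to 4, against 9.40, 8.41, 8.01 and 7.65 CPM in control libraries 1 to 4, a log2 fold change of 0.72 ± 0.11 (SE; edgeR adjusted p = 0.000341). Several of the genes in this group, such as the acetyltransferases Crebbp and Ep300, serve many other transcription factors, and both were named after their values were seen. Both had their highest value in bigenic library 2, the library set apart by length, where Crebbp was at 126.4 CPM, against 68.37 to 83.84 CPM in the other bigenic libraries and 54.47 to 62.77 CPM in control libraries. Among the regulators 3 of 10 rose and 1 fell, the ubiquitin ligase gene Dtx4, by 0.37 on the log2 scale (edgeR adjusted p = 0.0125), a call lost without control libraries 2 and 3 (-0.37, adjusted p = 0.092) and with Ttr as a covariate (-0.41, adjusted p = 0.10). Its relative Dtx1, named after its values were seen, was at 114 ± 7.55 CPM in the bigenic mice and 70.3 ± 17.7 CPM in the controls (SD, n = 4 each; edgeR adjusted p = 0.00267).

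The remaining group held other Hes genes and related repressors, among them the Tle genes. In it 4 of 8 rose and 0 fell, beside 21.4% higher and 22.9% lower among all genes tested. Those that rose were Bhlhe40, Bhlhe41, Tle2 and Hes6, and Hes3 did not pass (edgeR adjusted p = 0.706). The sharpest rise was in Bhlhe40, a relative of the Hes genes that is better known as a regulator of the circadian clock. It had CPM values of 136.5, 159.0, 185.3 and 163.6 in bigenic libraries 1 to 4, against 59.36, 64.82, 61.23 and 57.01 CPM in control libraries 1 to 4, a log2 fold change of 1.41 ± 0.09 (SE; edgeR adjusted p = 2.9e-06). Its paralog Bhlhe41, also a clock gene, rose by 0.84 ± 0.12 (SE; edgeR adjusted p = 0.00024). Bhlhe40 shares exon sequence with 0610040F04Rik, and Bhlhe41 with Gm43909, each transcribed the other way, as is also true of Dll1, Dll4, Dlk2, Furin and Maml1 with a neighbour of their own.

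**Figure D4:**
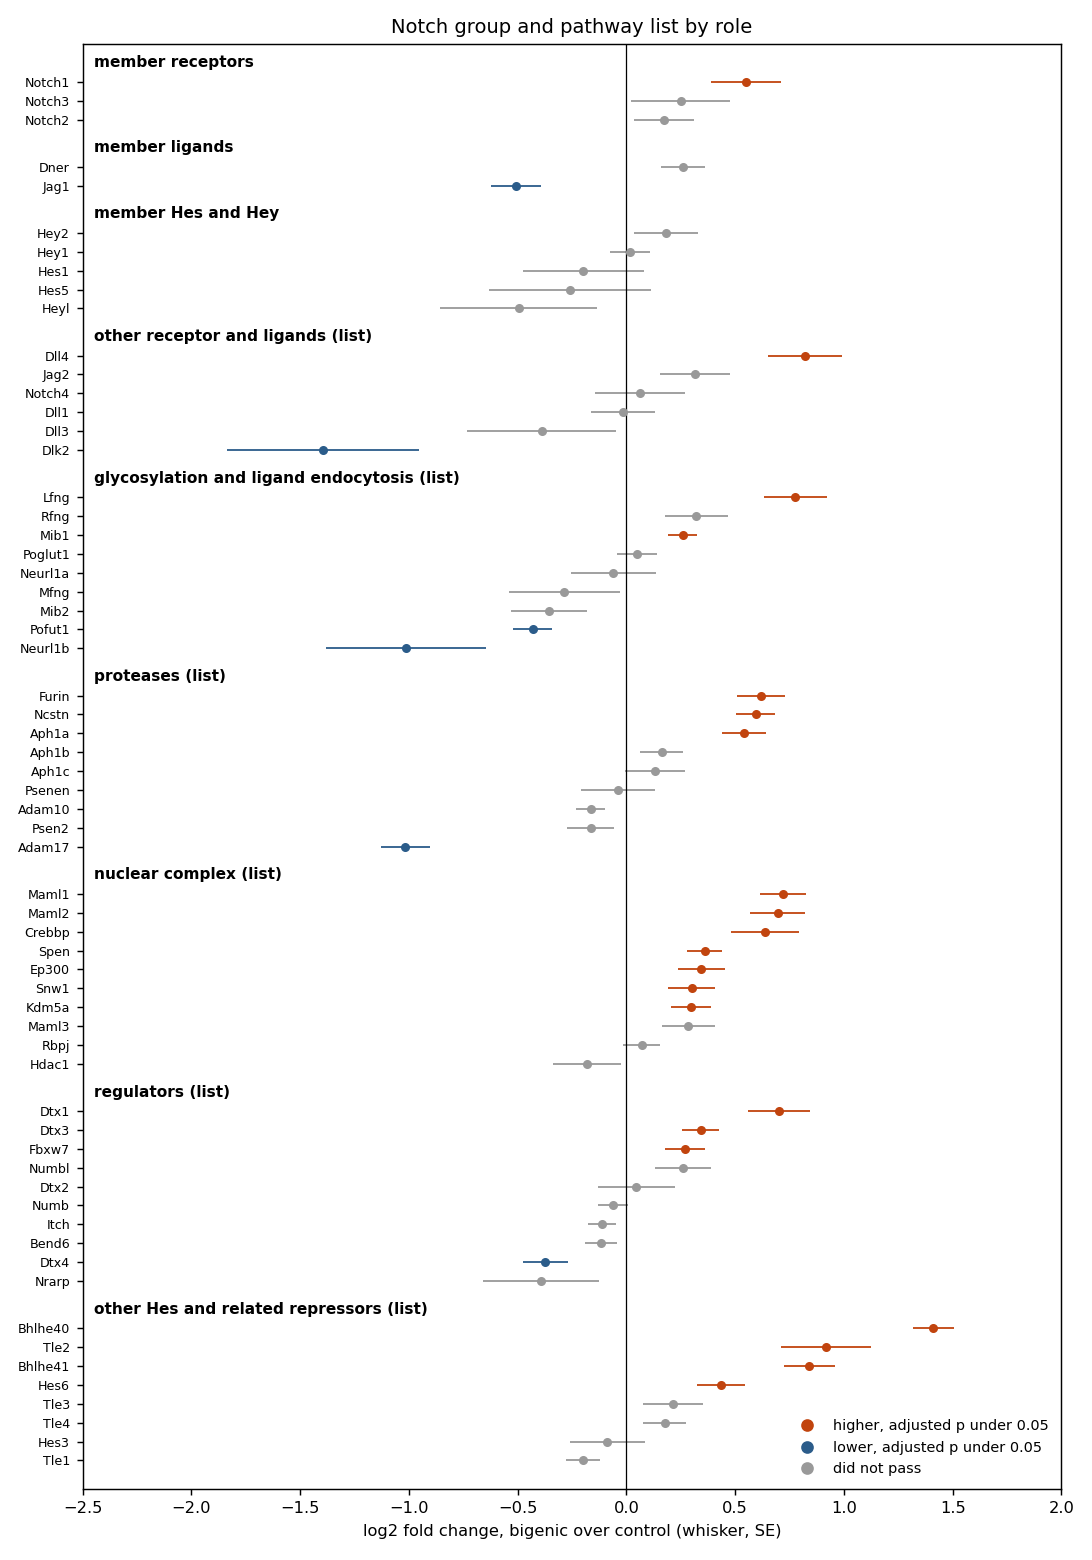
Log2 fold change, bigenic over control, with its SE for the 10 genes and 52 of the 54 tested genes of the pathway list, grouped by role. Orange marks genes higher and blue genes lower at an adjusted p under 0.05, and grey those that did not pass; of the 5 Hes and Hey members 0 passed, and the nuclear partners drawn are mostly higher.

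Astrocytes were the cells in which Cre is expressed, and their markers moved in both directions beside the Notch genes. Of 11 markers of Bergmann glia and astrocytes, 4 rose and 3 fell, beside 21.4% higher and 22.9% lower among all genes tested. Gdf10, a growth factor of Bergmann glia, was at 194 ± 27.2 CPM in the bigenic mice and 99.3 ± 12.2 CPM in the controls, and the glutamate transporter Slc1a3 at 2550 ± 182 CPM in the bigenic mice and 2350 ± 202 CPM in the controls (SD, n = 4 each; edgeR adjusted p = 8.67e-05 and 0.262). The largest change in the list was a fall, in the fatty acid-binding protein gene Fabp7, at 12.5 ± 4.94 CPM in the bigenic mice and 64.3 ± 10.9 CPM in the controls (SD, n = 4 each), a log2 fold change of -2.36 (edgeR adjusted p = 8.3e-05). The water channel gene Aqp4 fell by 0.48 and Hopx by 0.32 on the log2 scale (edgeR adjusted p = 0.00927 and 0.00657). Aldh1l1 rose by 0.475, Slc1a2 by 0.25 and Gja1 by 0.27 on the log2 scale (edgeR adjusted p = 0.000257, 0.0456 and 0.0371). The summed level of the list was between 5790 and 6740 CPM in bigenic libraries and between 5590 and 6070 CPM in control libraries. Of 8 granule cell markers 1 rose and 2 fell, Gabra6 and Neurod1. Of 7 microglial markers 0 rose and 3 fell. Tmem119, Csf1r, C1qa and C1qb did not pass (edgeR adjusted p = 0.604, 0.124, 0.48 and 0.38). The summed level of the 7 was 129 to 156 CPM in bigenic libraries and 169 to 203 CPM in control libraries. Of 8 fibroblast markers 0 rose and 4 fell, and of 7 oligodendrocyte markers 3 rose and 0 fell. The background for these counts is 21.4% higher and 22.9% lower among all genes tested. The part of these cell types in the Notch values was not tested.

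The genes most like Notch1, Jag1 and Dner over the 8 libraries were found by the root mean square difference of log2 CPM, each gene centred on its own mean. For Jag1 they included Ap1s2 and G3bp2, with differences of 0.025 and 0.042. For Dner they were Vps9d1, Col4a1 and Ttyh2, at 0.048, 0.050 and 0.051. For Notch1 they were Arid1b, Inha and Ube2o, at 0.085, 0.093 and 0.093. None of the genes named here is a component of the pathway list, and with 15186 genes and 8 libraries some will lie close to any profile.

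**Figure D5:**
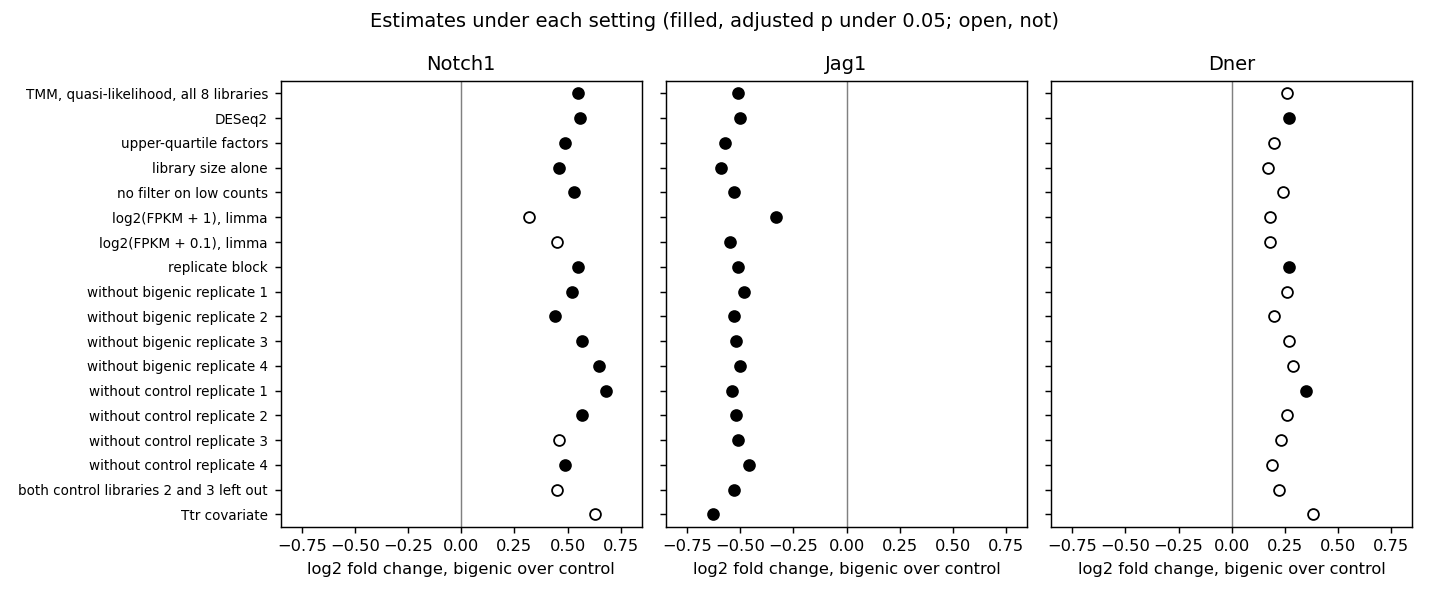
Log2 fold change, bigenic over control, of Notch1, Jag1 and Dner under each setting, with filled points at an adjusted p under 0.05 and open points otherwise. Jag1 is filled throughout, Notch1 is filled in 12 of 17 alternatives and Dner in 3 of 17.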

How the data were processed

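RNA of whole cerebellum was measured by sequencing in 8 mice. Per the labels, RNA came from a column kit and was made into stranded, ribosomal RNA-depleted libraries, whereas the series design names a different kit, library method and instrument. STAR, HTSeq and mm10 are listed in the submitters' processing notes; versions, annotation and strand setting are not given in the sources used here. The authors deposited read counts per gene symbol, not normalised, and FPKM values, which are those counts over 1 constant length for each gene and over the column total (checked to a relative spread of at most 6.5e-07).

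Counts were fitted in R 4.3.3 with edgeR 4.0.16 (filterByExpr on group, TMM, robust quasi-likelihood F test), bigenic against control, n = 4 each, with Benjamini-Hochberg adjustment across 15186 genes; a gene was called at an adjusted p under 0.05. The SE is the log2 fold change divided by the root of F. Limma 3.58.1 (log2 FPKM) and DESeq2 1.42.0 were alternatives. The script was tested on simulated counts in which far fewer genes changed than were called here, equally up and down. That test does not bear on the choice of scaling. The 10 genes and all lists were chosen with earlier results of these data known. From the pathway list the text names Notch4, Dll1, Dll4, Jag2, Rbpj and the 5 higher and 5 lower called genes with the smallest p; from each marker list, the first 2 genes. Crebbp, Ep300, Dtx1, Hes3, Hes6, Tle2, Fabp7, Aqp4, Hopx, Vtn, Kdr and Tie1 were added after their values were seen. The same holds for Aldh1l1, Slc1a2, Gja1, Tmem119, Csf1r, C1qa and C1qb. A few genes these rules select are not reported here. Positions are from GENCODE M21. Depth was 35208460 to 38293012 counted reads per library; intervals rest on the spread between mice.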

Additional observations from a re-analysis of the deposited data

How the results depend on the processing

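Over 17 alternatives, Jag1 remained lower and called in each. Notch1 remained higher but missed the threshold on log2(FPKM + 1) (0.32), on log2(FPKM + 0.1) (0.45), without control libraries 2 and 3 (0.45) and with the Ttr covariate (0.63), an alternative chosen after seeing the data; leaving out 1 library at a time gave 0.44 to 0.68. Dner was called with DESeq2 (0.27), and leave-one-out values ran from 0.19 to 0.35. So the number of the 10 genes called higher was 2 with DESeq2, 0 on both FPKM scales, 0 without control libraries 2 and 3, 0 with the Ttr covariate and 0 to 2 with 1 library left out. Hey1, near 0, turned negative with upper-quartile factors (-0.042), library size alone (-0.068), no filter (-0.0022), log2(FPKM + 1) (-0.07), log2(FPKM + 0.1) (-0.073), without control libraries 2 and 3 (-0.0017) and with the Ttr covariate (-0.052), and ran from -0.036 to 0.094 with 1 library left out. With 1 library left out Hes1 ran from -0.36 to 0.11, Hes5 from -0.53 to 0.15, Notch4 from -0.024 to 0.22 and Dll1 from -0.12 to 0.07. Notch4 and Rbpj turned negative with library size alone (-0.021 and -0.016), log2(FPKM + 1) (-0.0097 and -0.012) and log2(FPKM + 0.1) (-0.03 and -0.016), Notch4 also without control libraries 2 and 3 (-0.054), and Dll1 was 0.10 with the Ttr covariate. For the pathway list, 11 genes were higher without control libraries 2 and 3, 9 with the Ttr covariate, and 10 lower with library size alone. For all genes, 1619 were higher and 1775 lower without control libraries 2 and 3, and 1270 and 1665 with the Ttr covariate. These 2 alternatives have fewer samples or residual degrees of freedom. Ttr also largely follows the groups, at 2.25 to 4.62 CPM in bigenic libraries and 300, 2360, 2961 and 2.76 CPM in control libraries 1 to 4. The effect of group and that of the covariate are therefore poorly separated. The cause of the shifts was not tested for any alternative. With the mouse number as a replicate block 2 of the 10 genes were called higher, Dner among them (0.27, edgeR adjusted p = 0.015). Same-numbered mice had correlations of 0.33, 0.02, 0.17 and 0.06 after each gene was centred within its group. Of the 4 bigenic libraries, 3 correlated best with the control of their own number. The labels used here state no pairing, and whether the numbers pair the mice was not tested. With the Ttr covariate Hes5 was at -1.03 and Heyl at -0.97, and without control libraries 2 and 3 they were at -0.61 and -0.73, none of them called. Counts per library were 10 to 67 for Hes5 and Heyl; counting error and the spread between mice were not separated for these genes.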
